A study of Mus musculus with 2 samples.

Results

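The 9 genes described here are the metallothioneins Mt1 and Mt2, the glucocorticoid-responsive genes Tsc22d3, Fkbp5, Per1, Zbtb16, Sgk1 and Klf9, and Nr3c1, which encodes the glucocorticoid receptor. All 9 were found among the 31053 genes counted in live cells sorted from intact hearts of P1 and P7 mice (postnatal days 1 and 7). The genes were chosen with their levels at P1 and P7 and in the cell classes below already known, so these values are a description and were not tested. For each age, 3 hearts of the same litter were pooled into 1 library of single cells. There was therefore no replicate at either age, and P1 and P7 were compared as 2 libraries. No strain, transgene or treatment is given in the labels for these hearts. Collagenase digestion lasted 20 min at P1 and 45 min at P7, and the libraries also differed in sex, with 57336 UMIs of Xist at P1 against 12 at P7 and with 2 UMIs of 4 Y-linked genes at P1 against 18039 at P7. Age, sex, digestion time and library cannot be told apart in any value below.

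Metallothioneins are small cysteine-rich proteins that bind zinc and copper. Their genes are switched on by metals through the transcription factor MTF1 and also respond to glucocorticoids and oxidants. Glucocorticoids are adrenal steroids that rise around birth and contribute to the maturation of the fetal heart. On binding hormone, the receptor releases its chaperones, enters the nucleus and acts at response elements, where genes such as Tsc22d3 and Fkbp5 are among its best known direct targets. Fkbp5 and Zbtb16 are also known as targets of the androgen and progesterone receptors.

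A UMI (unique molecular identifier) is a tag that counts each captured mRNA molecule once. Cells with 200 to 8000 genes and at most 20% mitochondrial UMIs were kept, which left 4991 cells with 59026295 UMIs at P1 and 8511 cells with 97432007 UMIs at P7. The median depth was 10875 and 10104 UMIs per cell. Classes were gated by at least 1 UMI of 1 gate gene and none of the other 5: Cdh5 for endothelium, Pdgfra for fibroblasts, Myh11 for smooth muscle, Kcnj8 for pericytes, Csf1r for macrophages and Upk3b for epicardium. The summed level of each class's 5 marker genes was highest in its own gate at both ages. Fibroblast markers were nearly as high in the epicardial gate at P1, at 16570 CPM against 20390 CPM in fibroblasts. In the pericyte gate they summed to 7067 CPM at P1 and 11550 CPM at P7, above the pericyte markers there (4233 and 8382 CPM). The part of fibroblast transcripts in the pericyte values was not tested. The gates held 1628 endothelial cells at P1 and 3120 at P7, 1083 and 2113 fibroblasts, 121 and 313 smooth muscle cells, 200 and 337 pericytes, 225 and 189 macrophages, and 32 and 10 epicardial cells. Of the 32 epicardial cells at P1, 16 (50.0%) had UMIs of Hoxa5, a gene of lung mesenchyme and other non-cardiac sites, against 0 of the 10 at P7, too few cells for a comparison. Cells with Hoxa5 or at least 2 of 7 epithelial genes (Sftpc, Ager, Cldn18, Sftpa1, Sftpb, Sftpd and Epcam) are called cells with lung genes below. They numbered 282 at P1 and 147 at P7 in all, of which 145 and 108 were in the endothelial gate. The summed level of 5 alveolar epithelial markers was 236 CPM at P1 and 1.10 CPM at P7 in all cells. The name is thus a label, and whether these cells came from lung was not tested. Markers of other cell types differed between the libraries too. The 5 neutrophil markers, all present in both libraries, summed to 2358 CPM at P1 and 406 CPM at P7 in all cells, 11020 and 2655 CPM in the macrophage gate, where they exceeded the macrophage markers at P1 (4152 CPM), and 4879 and 828 CPM in the smooth muscle gate. Their part in the values of these gates was not tested. UMIs were summed per class and library and scaled to CPM (counts of the gene per 1000000 UMIs). Log2 ratios of P1 over P7 were taken after 0.5 was added to the summed UMIs of both libraries. Intervals are at 95% and cover counting error only, so differences from heart to heart lie outside them.

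Mt1 and Mt2 are neighbours on chromosome 8, where Mt2 lies at 94172664 to 94173568 and Mt1 at 94179082 to 94180327 (GRCm38, GENCODE M21), separated by 5513 bases. The 250 bases before the start sites of both, and of 1 start site of Sgk1, are shown because they were searched for the elements through which the metal sensor and the receptor are known to act. The sequences are from RefSeq on GRCm38.p6, on the plus strand, at chr8:94178839-94179088 for Mt1, chr8:94172368-94172617 for Mt2 and chr10:21993640-21993889 for Sgk1. Capitals mark the cores of metal response elements, TGCACNC or TGCGCNC on either strand, in Mt1 and Mt2, and, in Sgk1, the palindromic glucocorticoid response element, AGAACA and TGTTCT with any 3 bases between them.
Mt1: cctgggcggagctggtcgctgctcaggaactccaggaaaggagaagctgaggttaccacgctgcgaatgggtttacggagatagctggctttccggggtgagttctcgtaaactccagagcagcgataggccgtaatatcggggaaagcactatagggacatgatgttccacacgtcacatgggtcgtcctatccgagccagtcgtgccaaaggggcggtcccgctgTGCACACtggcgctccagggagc
Mt2: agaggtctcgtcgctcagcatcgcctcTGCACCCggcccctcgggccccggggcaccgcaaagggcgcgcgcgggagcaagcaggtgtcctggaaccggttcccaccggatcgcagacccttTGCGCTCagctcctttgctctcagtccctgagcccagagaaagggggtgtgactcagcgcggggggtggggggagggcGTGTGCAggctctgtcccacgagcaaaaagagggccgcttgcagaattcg
Sgk1: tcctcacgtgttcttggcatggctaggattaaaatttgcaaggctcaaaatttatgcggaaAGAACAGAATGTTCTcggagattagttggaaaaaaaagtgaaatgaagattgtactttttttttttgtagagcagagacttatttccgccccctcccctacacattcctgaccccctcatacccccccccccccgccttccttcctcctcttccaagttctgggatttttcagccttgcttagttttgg
The Mt2 window held 3 metal response element cores, at -223, -128 and -50 from the start site (first base of each match), as did 1.26% of the 32851 promoters of the same length with at least 3. The Mt1 window held 1, at -23, and 21.4% of all promoters had at least 1. A core was also present in 1 of the 2 Per1 windows. With the 50 bases after the start site included, the counts were 3 for Mt1, most of them outside the bases printed, and 4 for Mt2, against 1.97% of promoters with at least 3 and 0.517% with at least 4. The palindrome of Sgk1 lay at -189, and 3 of the 32851 promoters (0.00913%) held one. This share is given for scale, since the Sgk1 window was picked for its match. The hexamer TGTTCT, on either strand, is part of that palindrome and occurred in 16.1% of all promoters. It was present in 3 of the 6 Sgk1 windows and 1 of the 3 Tsc22d3 windows, and in none of those of Mt1, Mt2, Fkbp5, Per1 and Klf9. No window of Zbtb16 or Nr3c1 was available, so these genes were not searched. The E-box CACGTG, bound by clock factors, was present in 6.02% of promoters, and in 1 of the 2 Per1 windows, the Fkbp5 window and the Sgk1 window shown. Positions are counted from the start site that RefSeq annotates. The GENCODE start of Mt2, at 94172664, lies downstream of its window, which ends at 94172617, so its positions depend on the start chosen. The Mt1 window holds 7 bases that GENCODE annotates as untranslated region of a transcript. Transcription of Mt1 may begin further downstream, in which case its printed window is not its proximal promoter and its count of 1 is not comparable with the 3 of Mt2. These matches describe letters in the sequence and not binding.

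In all cells together, the largest ratio among the 9 genes was that of Zbtb16, followed by Mt2, Fkbp5, Mt1 and Sgk1, whereas Nr3c1 was lower at P1 than at P7. Zbtb16, Mt2 and Fkbp5 were at least 2-fold higher at P1, that is 3 of 9, where 8.88% of 16552 genes with at least 20 UMIs were. None of the 9 was at least 2-fold higher at P7, where 4.07% of all genes were. Both shares are given beside the counts for scale, since the genes were selected on this contrast. The median log2 ratio was 0.74 for the 9 genes and 0.004 for all genes.

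**Figure D1:**
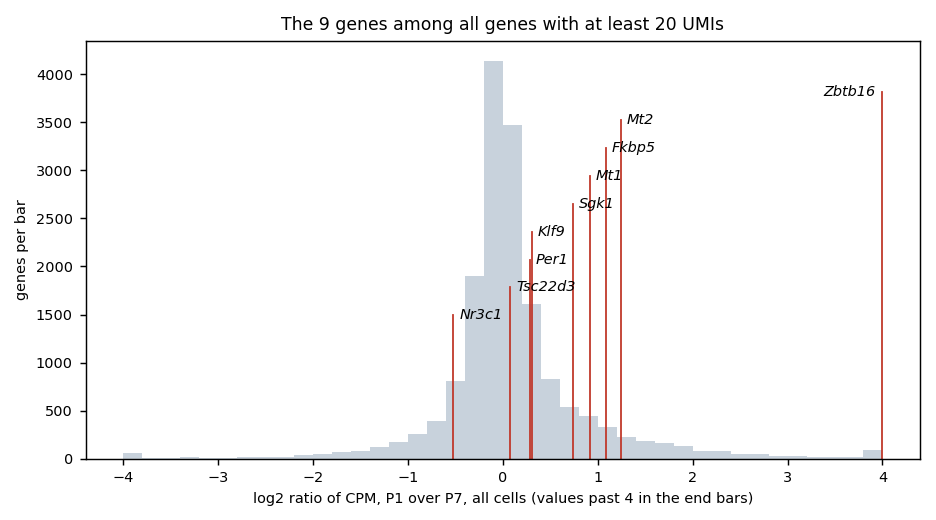
Histogram of the log2 ratio of CPM of P1 over P7 in all cells for the 16552 genes with at least 20 UMIs (bars, number of genes), with the 9 genes marked by red lines. Nr3c1 lies to the left of 0 at -0.52, Tsc22d3 near 0 at 0.08, and Zbtb16, at 4.47, in the end bar on the right.

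Across the 6 classes, 49 of the 54 pairs of gene and class had at least 20 UMIs. Of these, 19 were at least 2-fold higher at P1 and 0 at P7. The counts at P1 were 3 of 9 genes in endothelium (5.4% of all genes measured there), 5 of 9 in fibroblasts (6.57%), 3 of 9 in smooth muscle (5.51%), 3 of 9 in pericytes (3.62%), 2 of 8 in macrophages (3.64%) and 3 of 5 in epicardium (9.71%). At P7 the count was 0 in each class, where the shares of all genes were 4.15%, 4.64%, 4.04%, 3.2%, 3.73% and 7.14% in the same order. In fibroblasts the 5 genes were Mt1, Mt2, Fkbp5, Zbtb16 and Sgk1.

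**Figure D2:**
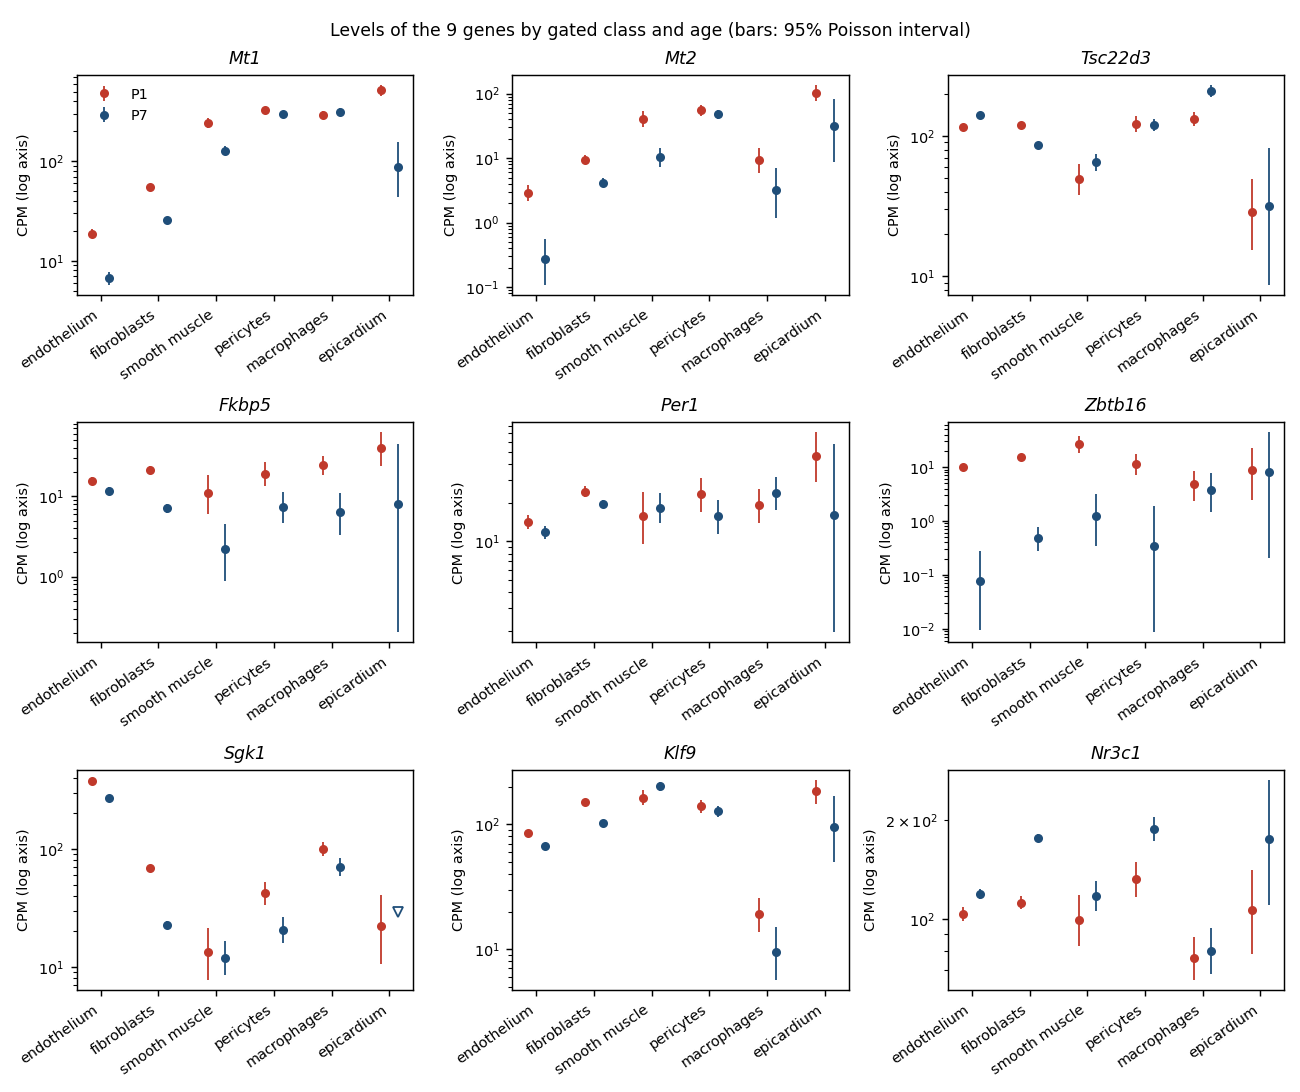
Level of each gene in CPM (log axis) in the 6 gated classes at P1 (red) and P7 (blue), with 95% Poisson intervals. The open triangle marks the upper limit for Sgk1 in P7 epicardium, which had 0 UMIs. Mt1 and Mt2 were lowest in endothelium, Sgk1 highest there, and Zbtb16 was at or below 1.26 CPM in 4 classes at P7.

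Both metallothioneins were higher in smooth muscle, pericytes and epicardium than in fibroblasts, and lowest in endothelium, whereas macrophages were high in Mt1 alone. Mt1 in all cells was 85.4 CPM at P1 (5039 UMIs) and 45.3 CPM at P7 (4409 UMIs), a log2 ratio of 0.92 (0.86 to 0.97), or 0.84 without cells with lung genes. By mitochondrial share of the cells, the ratio was 1.01 (0.95 to 1.08) under 5%, 0.18 (0.02 to 0.33) at 5 to 10% and 1.37 (0.86 to 1.95) at 10 to 20%. At P1 the level of Mt1 was 519 CPM in epicardium, 325 in pericytes, 294 in macrophages, 242 in smooth muscle, 55.4 in fibroblasts and 18.7 in endothelium. At P7 the corresponding levels were 88.0, 297, 314, 128, 25.8 and 6.69 CPM. The intervals of pericytes and macrophages overlapped at both ages, as did those of smooth muscle and epicardium at P7. All other neighbours in the order were separated by more than counting error. When the gates required 2 further markers, pericytes were highest at P1, at 658.5 CPM against 590.9 CPM in epicardium.

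The change of Mt1 with age differed between these classes. In fibroblasts the log2 ratio was 1.10 (0.97 to 1.24), and in smooth muscle it was 0.92 (0.70 to 1.14). In pericytes it was 0.13 (-0.02 to 0.28) and in macrophages -0.09 (-0.26 to 0.07), so that the 2 classes with the highest Mt1 at P7 had levels at P1 that were not separated from those at P7 by counting error. In macrophages at or below the median share of immediate early and heat shock UMIs, the ratio was 0.69. The pericyte ratio was 0.63 when the gate required 2 further markers. An Mt1 UMI was found in 59.0% of pericytes at P1 and 65.3% at P7, and after thinning to 2000 UMIs per cell the shares were 40.7% and 37.1%. The endothelial share, the lowest of any class, was 6.57% at P1 and 4.46% at P7 before thinning, at median depths of 10154 and 7447 UMIs. In epicardium the ratio was 2.50 (1.70 to 3.58), from 234 UMIs in 32 cells at P1 and 11 UMIs in 10 cells at P7. It was 2.79 without the cells with lung genes and 1.45 when gates could overlap.

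A single cell held a large part of the endothelial UMIs of both metallothioneins at P1. The log2 ratio of Mt1, from 336 and 174 UMIs, was 1.48 (1.22 to 1.76), but 151 of the 336 came from 1 of the 107 P1 endothelial cells with the gene. The same cell had 28 of the 52 UMIs of Mt2. It also had 17 UMIs of Epcam, an epithelial adhesion gene, 5 of Cldn18 and 2 of Sftpd, both lung epithelial genes, beside the endothelial gate gene. When the cell with the most UMIs was left out of each library, an alternative chosen after the data were seen, the Mt1 ratio fell to 0.68, from 10.3 CPM at P1 against 6.43 CPM at P7. It was 0.68 without all cells with lung genes. In both cases endothelial Mt1 was no longer at least 2-fold higher at P1.

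Mt2 was also lowest in endothelium, but unlike Mt1 it was low in macrophages, at 9.52 CPM at P1 and 3.19 CPM at P7. In all cells it was 13.5 CPM at P1 (798 UMIs) and 5.73 CPM at P7 (558 UMIs), a log2 ratio of 1.24 (1.08 to 1.40). The ratio was 1.19 (0.86 to 1.52) in fibroblasts, 1.96 (1.32 to 2.65) in smooth muscle, 0.20 (-0.18 to 0.58) in pericytes and 1.55 (0.25 to 3.64) in epicardium. In endothelium it was 3.34 (2.29 to 4.81), from 52 and 7 UMIs, and 2.45 without the cell with the most UMIs in each library, which left 24 and 6. When gates could overlap it was 0.89. With the gates as defined above, pericytes were the class where neither metallothionein differed between ages by more than counting error. The pericyte ratio of Mt2 was 0.63 when gates could overlap, and that of Mt1 was 0.63 when the gate required 2 further markers.

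Macrophages stood apart in the balance of both genes. They had 679 Mt1 UMIs and 22 Mt2 UMIs at P1, or 30.9 Mt1 UMIs per Mt2 UMI (20.2 to 49.6), and 590 and 6 at P7, or 98.3 (44.9 to 269). In fibroblasts this number was 5.83 (4.92 to 6.94) at P1 and 6.18 (5.19 to 7.41) at P7, and in pericytes 5.91 (4.80 to 7.33) and 6.21 (5.20 to 7.48). Smooth muscle had 5.94 (4.42 to 8.13) at P1 and 12.3 (8.62 to 18.1) at P7. Endothelium had 6.46 (4.81 to 8.83) at P1, or 7.71 without the cell named above, and 24.9 (11.8 to 62.7) at P7, where it rested on 7 Mt2 UMIs. At both ages the macrophage interval lay above those of fibroblasts, smooth muscle, pericytes and epicardium. These numbers compare classes, and the 3' counts do not rank one gene's level above the other's.

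**Figure D3:**
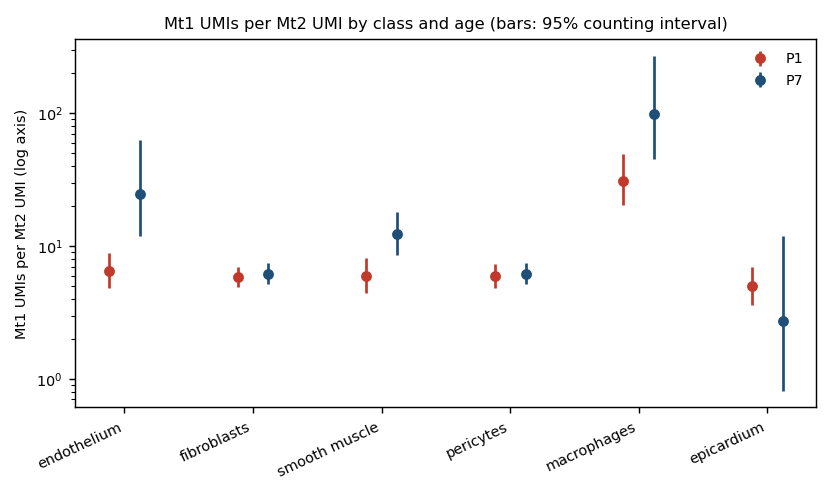
Mt1 UMIs per Mt2 UMI (log axis) in the 6 classes at P1 (red) and P7 (blue), with 95% counting intervals. Fibroblasts and pericytes sit near 6 at both ages, whereas macrophages sit at 30.9 and 98.3.

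Within classes, cells with Mt1 also tended to have Mt2 in some classes. Over cells thinned to 2000 UMIs, Pearson's r between both was 0.40 and 0.35 in pericytes at P1 and P7, and 0.49 in macrophages at P1 but 0.07 at P7. It was 0.21 in fibroblasts at P1, 0.04 at P7 and -0.004 in endothelium at P7. In macrophages Mt2 averaged only 0.0193 thinned UMIs per cell over 207 cells at P1 and 0.00559 over 179 at P7. Counts this sparse tend to keep r low, but where UMIs are very few, a few cells can also make r high. The cells of a library are not replicates. Over all cells, r between Mt1 and Mt2 was 0.29 at P1 and 0.21 at P7. Among the other 35 pairs of the 9 genes the highest r over all cells was 0.06 at P1, between Klf9 and Nr3c1. Within some classes another pair was higher than Mt1 and Mt2. In P1 epicardium Tsc22d3 and Zbtb16 had 0.56, against 0.14 for Mt1 and Mt2. Over its 32 cells the thinned counts averaged 0.0938 UMIs of Tsc22d3 and 0.0313 of Zbtb16, so this r rests on very few UMIs. In P7 macrophages Mt2 and Tsc22d3 had 0.21, where Mt2 was as sparse as given above. Another pair was also higher in endothelium, fibroblasts and smooth muscle at P7, at 0.07, 0.07 and 0.09.

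Zbtb16, at 48654297 to 48836222 on chromosome 9, encodes PLZF, a zinc finger repressor induced by glucocorticoids and needed for innate-like lymphocytes and stem cell maintenance. It had 756 UMIs at P1 (12.8 CPM) and 56 at P7 (0.575 CPM), a log2 ratio of 4.47 (4.09 to 4.90) or 22.1-fold. In endothelium the counts were 179 at P1 against 2 at P7, a ratio of 6.70 (5.15 to 10.08). Fibroblasts had 257 and 17, a ratio of 4.96 (4.29 to 5.80), smooth muscle 34 and 4, a ratio of 4.25 (2.92 to 6.36), and pericytes 22 and 1, a ratio of 4.52 (2.44 to 10.44). Macrophages had 11 UMIs at P1 and 7 at P7, too few to be called, with 4.76 and 3.72 CPM. In each of the 4 classes with at least 20 UMIs, the P1 and P7 intervals did not overlap.

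The Zbtb16 UMIs were spread over many cells. In P1 endothelium they came from 146 of 1628 cells (8.97%), with at most 3 in any cell, whereas at P7 they came from 2 of 3120 cells (0.0641%). After thinning, 34 of 1512 cells (2.25%) and 1 of 2883 (0.0347%) had a UMI. No class here is known to lack the gene, so no background share can be given. In macrophages 9 of 225 cells at P1 and 7 of 189 at P7 had a UMI (5 of 207 and 2 of 179 after thinning), at median depths of 8446 and 9758 UMIs. At P1 the level was highest in smooth muscle, at 26.7 CPM, followed by fibroblasts at 15.4 CPM, and the intervals of fibroblasts, pericytes and endothelium overlapped in turn. The log2 ratio in all cells lay between 3.96 and 5.02 in each tertile of the share of immediate early and heat shock UMIs, and was 4.39 without cells with lung genes.

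Fkbp5, at 28399094 to 28517527 on chromosome 17, encodes a co-chaperone that lowers the affinity of the receptor for hormone and is itself induced by it, closing a feedback loop. It was 19.1 CPM at P1 (1128 UMIs) and 9.02 CPM at P7 (879 UMIs), a log2 ratio of 1.08 (0.95 to 1.21). The ratio was above 0 in all 5 classes with at least 20 UMIs and its interval excluded 0 in each. It was 1.59 (1.35 to 1.82) in fibroblasts, 1.35 (0.57 to 2.20) in pericytes, 1.88 (1.01 to 2.96) in macrophages and 2.27 (0.91 to 3.87) in smooth muscle, from 14 and 7 UMIs. In endothelium it was 0.43 (0.19 to 0.67), from 15.6 and 11.6 CPM. Endothelium had the highest Fkbp5 level at P7, although its interval overlapped that of the next class, and the second lowest at P1.

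The Fkbp5 ratio differed with the share of immediate early and heat shock UMIs per cell, genes known to rise during enzymatic digestion. These 32 genes held 1.06% of UMIs at P1 and 1.05% at P7. In the tertile of cells with the lowest share the log2 ratio was 0.44 (0.21 to 0.67), in the middle tertile 1.18 (0.97 to 1.40) and in the highest 1.61 (1.38 to 1.85). The P7 level fell across the same tertiles from 12.8 to 9.30 and 6.15 CPM, while the P1 level was 17.3, 21.1 and 18.8 CPM. The part of digestion in this was not tested, and classes differ in this share, from 0.741% of UMIs in endothelium to 1.73% in smooth muscle at P1. Within fibroblasts the ratio was 1.52 in cells at or below the median share.

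Sgk1, at 21882184 to 21999903 on chromosome 10, encodes a kinase that regulates ion channels and transporters and is induced by glucocorticoids and mineralocorticoids. It was highest in endothelium, which held 66.5% of its UMIs at P1 and 70.5% at P7, at 378 CPM in endothelium at P1 and 273 CPM at P7, against 100 and 70.7 in macrophages, the next class. The macrophage ratio was 0.50 (0.19 to 0.83), or 2.33 in cells at or below the median share of immediate early and heat shock UMIs. The endothelial ratio was 0.47 (0.42 to 0.52). In fibroblasts, where the gene was lower, the ratio was larger at 1.61 (1.48 to 1.74), from 69.1 and 22.7 CPM. In pericytes it was 1.02 (0.53 to 1.53), from 81 and 61 UMIs, but 0.32 when the gate required 2 further markers. Smooth muscle had 17 UMIs at P1 and 38 at P7, levels that were not separated by counting error. In epicardium there were 10 UMIs at P1 and 0 at P7, where 3 counts would be 24.0 CPM, so no fold is given. In all cells the ratio was 0.74 (0.70 to 0.78). It differed with depth, at 0.16 (0.01 to 0.31) in cells under 5000 UMIs, 0.72 (0.67 to 0.76) from 5000 to 20000 UMIs and 1.14 (1.05 to 1.22) above. The part of depth in this was not tested.

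Tsc22d3 and Klf9 had ratios of opposite sign in different classes. Tsc22d3, at 140539528 to 140600659 on chromosome X, encodes GILZ, a leucine zipper protein through which glucocorticoids restrain inflammatory signalling. In all cells it was 116 CPM at P1 and 110 CPM at P7, a log2 ratio of 0.08 (0.03 to 0.12), or -0.01 after thinning. It was higher at P1 in fibroblasts, at 119 against 86.0 CPM, a ratio of 0.47 (0.39 to 0.55). It was higher at P7 in endothelium, at 141 against 116 CPM, a ratio of -0.28 (-0.36 to -0.20), and in macrophages, at 211 against 133 CPM, a ratio of -0.67 (-0.89 to -0.45). In macrophages at or below the median share of immediate early and heat shock UMIs, the ratio was -0.19. In pericytes the levels were 122 and 120 CPM.

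Klf9, at 23141226 to 23168134 on chromosome 19, encodes a zinc finger repressor that is a direct target of the receptor. It was 114 CPM at P1 and 92.3 CPM at P7 in all cells, a ratio of 0.31 (0.26 to 0.35). Fibroblasts had 151 and 103 CPM, a ratio of 0.55 (0.48 to 0.62), and endothelium 85.7 and 67.6 CPM, a ratio of 0.34 (0.24 to 0.44). Smooth muscle had 164 CPM at P1 and 202 CPM at P7, a ratio of -0.30 (-0.53 to -0.07). Macrophages had the lowest Klf9 at both ages, at 19.0 and 9.56 CPM, a ratio of 0.97 (0.17 to 1.87) from 44 and 18 UMIs. It was 0.01 as the mean of per-cell CPM and 0.15 when gates could overlap. In epicardium the ratio was 0.89 (0.06 to 1.95), but -0.06 without cells with lung genes.

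Per1, at 69095217 to 69109960 on chromosome 11, is a clock gene with a receptor response element that responds quickly to glucocorticoids. It was 20.3 CPM at P1 (1197 UMIs) and 16.7 CPM at P7 (1628 UMIs), a log2 ratio of 0.28 (0.17 to 0.39). It was 0.32 (0.14 to 0.50) in fibroblasts and 0.28 (0.03 to 0.52) in endothelium, and in smooth muscle, pericytes and macrophages its intervals held 0. In epicardium the ratio was 1.25 (-0.49 to 4.68), from 21 and 2 UMIs, so that this value past 2-fold is not separated from 0 by counting error. The Per1 level varied little between classes, with 3.28-fold between the highest and the lowest at P1 and 2.04-fold at P7.

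Nr3c1, at 39410545 to 39519421 on chromosome 18, was present in every class, with a ratio below 0 in each. In all cells it was 104 CPM at P1 (6110 UMIs) and 149 CPM at P7 (14481 UMIs), a log2 ratio of -0.52 (-0.57 to -0.48), so that P7 was 1.44-fold higher. By depth, the ratio was -0.12 (-0.32 to 0.07) in cells under 5000 UMIs, -0.43 (-0.49 to -0.38) from 5000 to 20000 UMIs and -0.77 (-0.85 to -0.69) above. The ratio was -0.65 (-0.73 to -0.58) in fibroblasts, -0.51 (-0.73 to -0.29) in pericytes and -0.20 (-0.29 to -0.12) in endothelium. The pericyte ratio was -0.08 when the gate required 2 further markers. In smooth muscle it was -0.24 (-0.55 to 0.05), in macrophages -0.08 (-0.40 to 0.25) and in epicardium -0.74 (-1.48 to 0.07), all with intervals that held 0. The macrophage ratio was 0.22 as the mean of per-cell CPM. Levels ranged from 76.2 CPM in macrophages to 132 CPM in pericytes at P1, and from 80.2 to 189 CPM in the same classes at P7. With summed UMIs and the gates as defined above, the receptor was the only one of the 9 genes below 0 in all 6 classes. Fkbp5 and Mt2 were above 0 in every class with at least 20 UMIs, as were Zbtb16 in 4 and Sgk1 in 5.

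**Figure D4:**
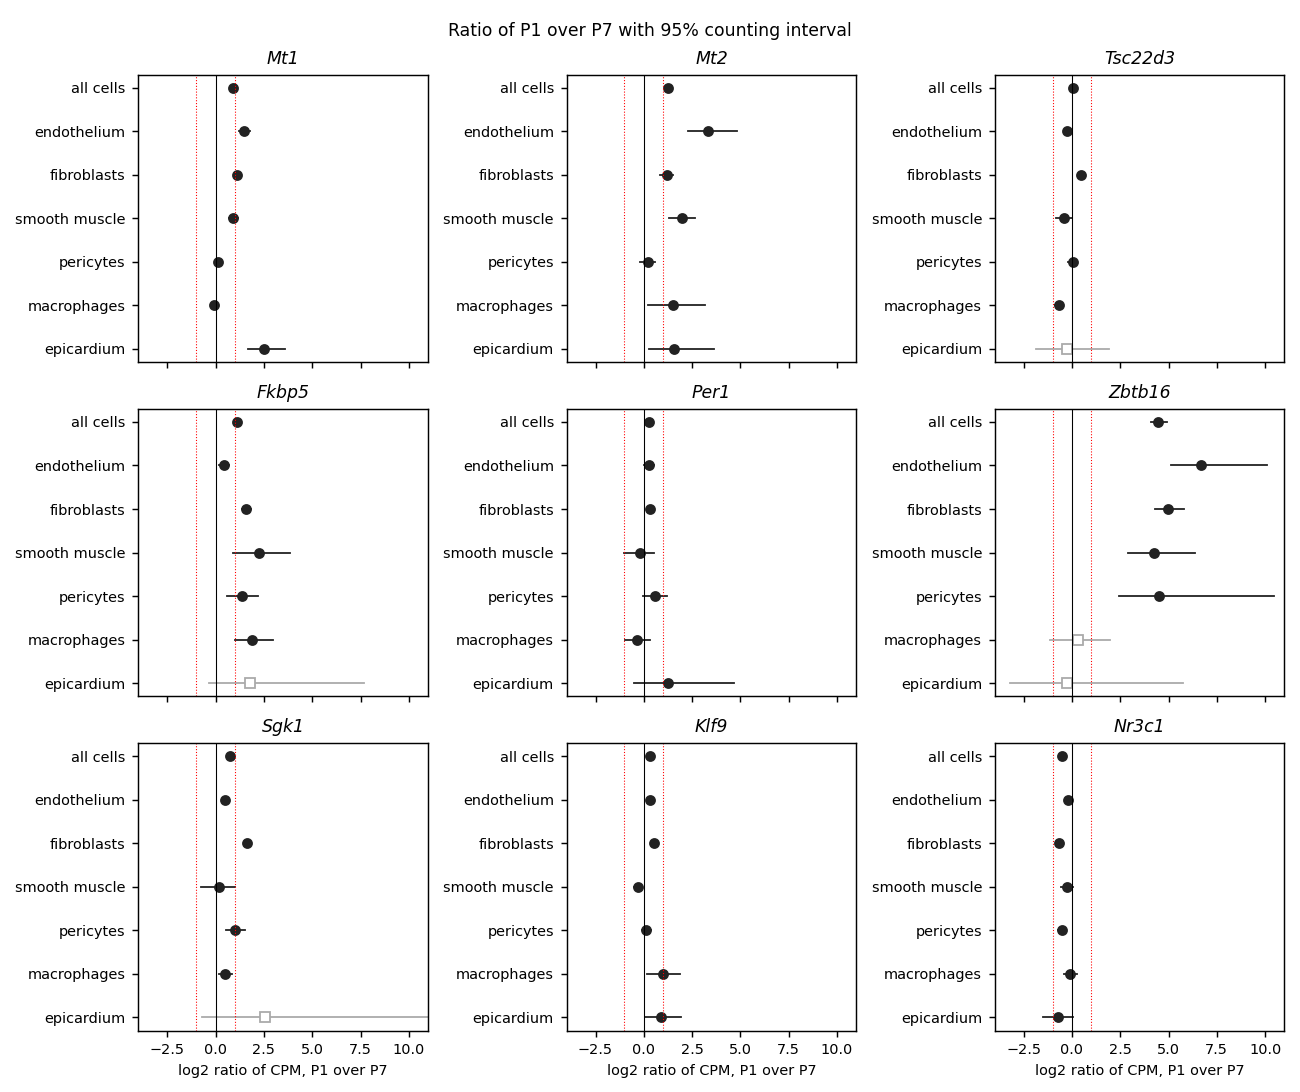
Log2 ratio of CPM of P1 over P7 for each gene in all cells and in the 6 classes, with 95% counting intervals (cut at -4 and 11). Filled circles have at least 20 UMIs over both libraries, open squares fewer, and dotted lines mark 2-fold. Zbtb16 lies beyond 2-fold at P1 in all 4 classes measured, and Nr3c1 to the left of 0 in all 6.

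Other genes of the same pathways were taken from 5 lists. The lists were chosen with earlier results of these data known, so their counts and medians are a description. Of 44 further genes known to respond to glucocorticoids, 42 had at least 20 UMIs in all cells, and 9 were at least 2-fold higher at P1 (8.88% of all genes were) and 0 at P7 (4.07%). The median ratio was 0.43, with 35 of the 42 above 0, against a median of 0.004 over all genes. The 9 were Il1r2, Hif3a, Lcn2, Klf15, Trim63, Mfsd2a, Angptl4, Pdk4 and Acot1. Cardiomyocyte markers summed to 607 CPM at P1 and 182 CPM at P7 in all cells, and their part in the ratios of these 9 genes was not tested. Il1r2, the decoy receptor for interleukin-1, was 4.24 CPM at P1 and 0.749 CPM at P7, a ratio of 2.49 (2.12 to 2.90). Hif3a, a HIF family member that responds to glucocorticoids, was 7.52 and 1.42 CPM, a ratio of 2.41 (2.13 to 2.70), and was above 1 in endothelium, fibroblasts, smooth muscle and pericytes, at 4.02, 2.61, 1.96 and 2.20. Lcn2, an iron-siderophore carrier, was 99.5 and 22.9 CPM, a ratio of 2.12 (2.05 to 2.19), but its ratio was 3.30 in macrophages, 2.22 in smooth muscle and -2.74 in fibroblasts. The neutrophil markers were also higher at P1 in all cells and in the macrophage and smooth muscle gates, as given above, and their part in the ratios of Il1r2 and Lcn2, both of which neutrophils are known to express, was not tested.

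The same list held genes that were higher at P7. Klf4, an endothelial and stem cell transcription factor, was 207 CPM at P1 and 326 CPM at P7, a ratio of -0.66 (-0.69 to -0.63), or -0.73 without cells with lung genes. By class its ratio was 0.04 in endothelium, -1.19 in fibroblasts, -1.02 in pericytes, -0.245 in macrophages, 0.345 in smooth muscle and 1.29 in epicardium. Crispld2 had a ratio of -0.56 (-0.65 to -0.46), and Dusp1, a phosphatase that limits MAP kinase signalling, was 335 and 486 CPM, a ratio of -0.54 (-0.56 to -0.51). In fibroblasts the list had a median of 0.54, with 11 of 41 genes at least 2-fold higher at P1 and 2 at P7, where 6.57% and 4.64% of all genes were. In endothelium the median was 0.32, with 7 and 0 of 39 genes (5.4% and 4.15% of all genes). In smooth muscle it was 0.31, with 7 and 1 of 36 (5.51% and 4.04%), and in pericytes 0.36, with 7 and 1 of 34 (3.62% and 3.2%). In macrophages it was -0.01, with 7 and 0 of 34 (3.64% and 3.73%), and in epicardium 0.43, with 9 and 1 of 19 (9.71% and 7.14%). The median of all genes lay between -0.06 and 0.04 in these classes.

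Of 20 genes for the receptor's chaperones, cofactors and hormone supply, 19 were measured, with a median of 0.02, 1 at least 2-fold higher at P1 (8.88% of all genes were) and 1 at P7 (4.07%). They were the pair of enzymes that set local hormone. Hsd11b1, which regenerates active glucocorticoid, was 8.51 CPM at P1 (502 UMIs) and 2.03 CPM at P7 (198 UMIs), a ratio of 2.06 (1.83 to 2.31), or 1.58 without cells with lung genes. It was 30.6 and 2.71 CPM in pericytes, a ratio of 3.42 (2.43 to 4.77), and 8.48 and 1.49 CPM in fibroblasts, a ratio of 2.50 (2.04 to 2.99). Hsd11b2, which inactivates the hormone, was 1.10 and 2.38 CPM, a ratio of -1.11 (-1.53 to -0.71). The chaperone Hsp90ab1 had a ratio of 0.30 and Hspa8 of 0.26, while Fkbp4, a co-chaperone that replaces Fkbp5 in the receptor complex when hormone binds, had -0.33 and the steroid exporter Abcb1b -0.62.

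Among 31 genes of metal handling and antioxidant defence, 28 were measured, with a median of -0.02, 1 at least 2-fold higher at P1 (8.88% of all genes were) and 0 at P7 (4.07%). That gene was Slc39a8, a zinc and manganese importer, with 5.54 and 2.11 CPM and a ratio of 1.39 (1.13 to 1.65), or 1.16 without cells with lung genes. In the classes where it had at least 20 UMIs, its ratio was 0.85 in endothelium, 0.70 in fibroblasts and 0.215 in epicardium. Gsr, which regenerates reduced glutathione, had a ratio of 0.80 (0.73 to 0.87), and Hmox1, which degrades haem, 0.79 (0.71 to 0.87). In endothelium Gsr had -0.12 and Hmox1 0.00. In the other classes with at least 20 UMIs, Gsr lay between 0.30 in pericytes and 1.88 in macrophages, and Hmox1 between 0.66 in macrophages and 2.01 in smooth muscle. Mtf1, the metal sensor that drives Mt1 and Mt2, was 20.2 CPM at P1 and 17.6 CPM at P7, a ratio of 0.20 (0.09 to 0.31), and the zinc exporter Slc30a1, another target of Mtf1, was 17.8 and 18.0 CPM. Nfe2l2, the antioxidant regulator, had -0.42, and the zinc transporters Slc30a6 and Slc30a4 had -0.38 and -0.31.

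The clock genes other than Per1 tended to be lower at P1 in all cells and in fibroblasts. All 20 were measured, with a median of -0.50, 0 at least 2-fold higher at P1 (8.88% of all genes) and 4 at P7 (4.07%), namely Per3, Dbp, Bhlhe41 and Hlf. Per3 was 10.0 CPM at P1 and 26.1 CPM at P7, a ratio of -1.38 (-1.51 to -1.25), Dbp, a clock output factor, 12.7 and 31.0 CPM, a ratio of -1.29 (-1.41 to -1.17), and Bhlhe41 had -1.24 (-1.50 to -0.99). Nfil3, which opposes Dbp at the same sites, was 20.6 and 12.6 CPM, a ratio of 0.71 (0.59 to 0.83), and Csnk1d had 0.14. By class the median was -0.62 in fibroblasts, -0.12 in endothelium and -0.115 in smooth muscle. It was -0.04 in pericytes, -0.145 in macrophages and 0.12 in epicardium, where 6 of the genes were measured. In fibroblasts 7 of 19 clock genes were at least 2-fold higher at P7 (4.64% of all genes) and 0 at P1 (6.57%). In endothelium 0 of 20 were higher at P7 (4.15%) and 2 at P1 (5.4%), 1 of them Hlf at 1.41 (0.98 to 1.86), which was -1.63 (-1.84 to -1.43) in fibroblasts. The time of day at which hearts were taken is not given in the sources used here.

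The 32 immediate early and heat shock genes, taken as a list, had a median of 0.14 in all cells, with 0 genes at least 2-fold higher at either age. Of all genes, 8.88% were at P1 and 4.07% at P7. Within classes the counts at P1 and P7 were 1 and 0 of 32 in endothelium (5.4% and 4.15% of all genes) and 0 and 2 of 32 in fibroblasts (6.57% and 4.64%). They were 2 and 0 of 30 in smooth muscle (5.51% and 4.04%) and 3 and 3 of 32 in pericytes (3.62% and 3.2%). In macrophages they were 2 and 1 of 31 (3.64% and 3.73%). In epicardium, where the median was 0.61, they were 6 and 2 of 21 (9.71% and 7.14%). In all cells, towards P1, Egr2 had a ratio of 0.76 and Ptgs2 of 0.71, and the largest towards P7 were Klf2 at -0.94 (-0.99 without cells with lung genes), Rhob at -0.58 and Hsph1 at -0.49. In classes with at least 20 UMIs, Ptgs2 had 0.54 in endothelium, -1.16 in fibroblasts, -0.88 in pericytes and -0.38 in macrophages. Egr2 had 0.60 in endothelium, 0.97 in fibroblasts, 0.28 in smooth muscle, 1.49 in pericytes and -0.67 in macrophages.

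**Figure D5:**
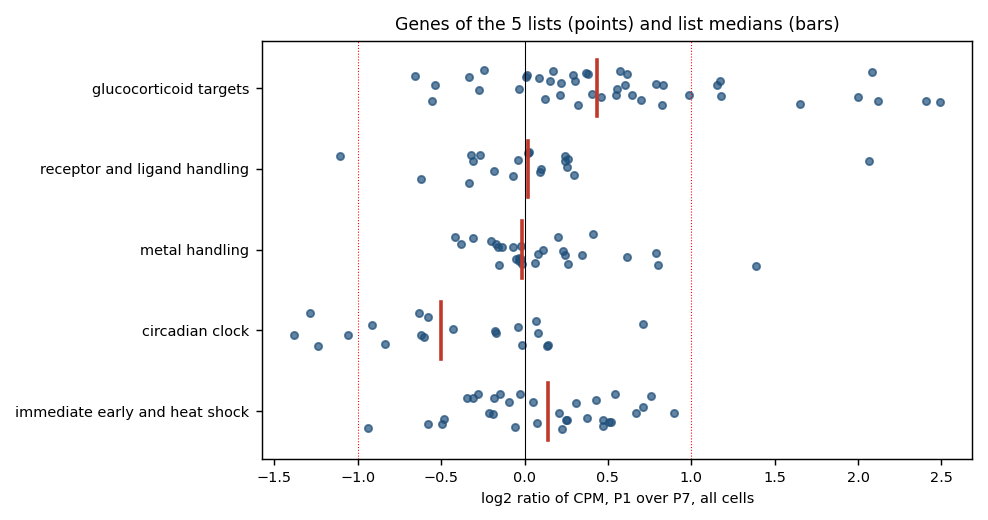
Log2 ratio of CPM of P1 over P7 in all cells for each measured gene of the 5 lists (points, spread vertically at random), with list medians as red bars and dotted lines at 2-fold. The glucocorticoid targets have a median of 0.43 and 9 genes beyond 2-fold at P1, and the clock genes a median of -0.50 and 4 beyond 2-fold at P7.

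The genes whose pattern was most like each of the 9 were found by Pearson's r of log2(CPM + 1) over the 12 profiles of class and library, among 10788 genes with at least 500 UMIs. For Mt1 they were Tecr (0.92), Ppfibp2 (0.92) and Ncoa6 (0.91), for Mt2 Trp53inp1 (0.95), Impa2 (0.90) and Haghl (0.87), and for Tsc22d3 Wdfy3 (0.96), Fes (0.95) and Litaf (0.94). For Fkbp5 they were BC004004 (0.85), Polr2a (0.85) and Rpl10a (0.85), for Per1 Siae (0.89), Ptgr1 (0.88) and Pdk3 (0.85), and for Zbtb16 Rnaset2b (0.86), Cwc22 (0.86) and Tmem242 (0.85). For Sgk1 they were Rps6ka2 (0.95), Slc20a1 (0.95) and Lipe (0.95), for Klf9 Nsmf (0.98), Mosmo (0.98) and Smc3 (0.97), and for Nr3c1 Naxe (0.95), Dnpep (0.94) and Abhd8 (0.93). The profiles share 2 libraries and differ widely in depth, down to 10 cells, and none of these genes was another of the 9. Each r is among the highest of 10788 values over only 12 profiles. How high r would reach for unrelated genes was not tested. In P7 epicardium the profiles of Fkbp5 and Zbtb16 rest on 1 UMI each.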

How the data were processed

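Droplet RNA-seq of single live cells was used, and each age is represented by 1 library of pooled hearts. The authors aligned the reads to mm10/GRCm38 with Cell Ranger 3.1.0 and deposited, for each library, raw UMI counts per gene and barcode. The limits of 200 and 8000 genes follow the study's methods, whereas the mitochondrial limit of 20% was set here. Doublets were limited only by the gene maximum and by the exclusive gates. Cells with more than 1 gate gene (762 at P1, 1299 at P7) or with none (940 and 1130) entered the values for all cells but no class. The 2 libraries shared 18 barcodes.

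UMIs were summed, and Poisson intervals for sums, conditional binomial intervals for ratios and Clopper-Pearson intervals for shares were computed with scipy 1.17.1, numpy 2.4.6 and pandas 2.3.3 and tested on simulated counts. A gene was counted as higher at an age when it had at least 20 UMIs and a difference of at least 2-fold. All 9 genes are named, with the 3 largest ratios in each direction per list among genes with at least 100 UMIs, and the 3 genes most alike to each. Of the genes this rule names, 2 are not reported here. Genes named beyond that were chosen after their values were seen. The genes and lists were chosen with earlier results of these data known. No test between ages was run. For thinning, 574 cells at P1 and 727 at P7 were too shallow.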

Additional observations from a re-analysis of the deposited data

Results flagged for a closer look

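Klf9 and Tsc22d3 were marked because their ratios of P1 over P7 had opposite signs in different classes, with counting intervals that excluded 0 on both sides. These differences between classes were not tested, since each age has 1 library. The log2 ratio of Tsc22d3 was 0.47 in fibroblasts, -0.28 in endothelium and -0.67 in macrophages. In macrophages at or below the median share of immediate early and heat shock UMIs, it was -0.19. The log2 ratio of Klf9 was -0.30 in smooth muscle, against 0.34 in endothelium, 0.55 in fibroblasts, 0.97 in macrophages and 0.89 in epicardium. The epicardial value was -0.06 without cells with lung genes, and the macrophage value was 0.01 as the mean of per-cell CPM.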

How the results depend on the processing

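No paired analysis was possible because each age has 1 library. Without replicates, no library could be left out. Over all alternatives, 814 of 900 recomputed ratios stayed within the counting interval of the reported value and no gene counted as 2-fold higher changed sign. This total includes settings that could hardly move a ratio, such as 0.1 or 1 count added (58 of 58 each) and other gates for all cells. Within the interval were 27 of 42 after thinning and 42 of 58 as the mean of per-cell CPM. In cells at or below the median share of immediate early and heat shock UMIs, 26 of 46 were. With P7 classes weighted as at P1, 4 of 9 were. Members at least 2-fold higher at P1 in all cells numbered 3, against 1 after thinning to 2000 UMIs and 5 at a limit of 1.5-fold. Pairs of gene and class at least 2-fold higher at P1 numbered 19, against 9 after thinning, 9 with a minimum of 100 UMIs and 12 in cells at or below the median share of immediate early and heat shock UMIs. Fewer UMIs, cells or pairs enter the lower counts, and what lowered them was not tested. After thinning, the log2 ratios of Mt2 and Fkbp5 in all cells were 0.89 and 0.97, below 2-fold. As the mean of per-cell CPM that of Mt2 was 0.97. At P7 the count of 0 became 3 at 1.5-fold and 1 in the cells at or below that median share. The shares of all genes at these settings are not given here, so these counts cannot be set against them. The ratio of Tsc22d3 in all cells, 0.08, was -0.01 after thinning. Weighting the P7 classes as at P1 and leaving out the cell with the most UMIs were chosen after seeing the data. The values of Zbtb16 in single classes at P7 rest on 1 to 17 UMIs, and those of Mt2 at P7 on 7 in endothelium and 6 in macrophages.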

Other observations

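Cells outside the 6 gates also carried these genes. In the 940 P1 and 1130 P7 cells with no gate gene, Mt1 was 99.4 CPM at P1 and 23.2 CPM at P7, a log2 ratio of 2.10 (1.86 to 2.35), Zbtb16 was 13.4 and 1.51 CPM, a ratio of 3.11 (2.27 to 4.17), and Fkbp5 was 14.4 and 14.9 CPM. The make-up of this group differed between ages: alveolar epithelial markers summed to 2156 CPM at P1 and 1.38 CPM at P7, cardiomyocyte markers to 3842 and 294 CPM, and neutrophil markers to 15320 and 2953 CPM. Their part in these ratios was not tested. Barcodes removed by the filters differed from the cells kept. In the 2253 P1 barcodes with under 200 genes, Mt1 was 169 per 1000000 non-mitochondrial UMIs (130 to 217), from 62 UMIs, against 88.5 in the cells kept. Klf9 and Nr3c1 were lower there, at 49.1 (29.1 to 77.55) against 118 and 60.0 (37.6 to 90.8) against 107. In the 592 P1 cells above the mitochondrial limit, Per1 was 54.8 (39.9 to 73.3) against 21.0 and Zbtb16 34.1 (22.6 to 49.2) against 13.3. Mt1 and Klf9 were also higher in these cells, at 159 (133 to 189) against 88.5 and 154.5 (129 to 184) against 118. Tsc22d3 was lower, at 91.3 (71.8 to 114) against 120. In the 405 P7 cells above that limit Per1 was 67.7 (45.4 to 97.3) against 17.3 and Mt1 77.1 (53.1 to 108) against 46.7. Tsc22d3 was lower, at 77.1 (53.1 to 108) against 113.5.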
